A study of Mus musculus with 14 samples.

Results

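Expression was compared between MHCII-high and MHCII-low alveolar macrophage-type cells taken from mouse lungs 4 weeks after bleomycin. The comparison used 6 of the 14 libraries in the study, 3 from each sort, and kept each gene that reached 10 normalized counts in 2 or more of those 6 libraries. That left 15496 of the 43432 genes in the table. All mice were male, of strain 129S1 and 10 to 12 weeks old, and bleomycin (labelled 3 U/k) was placed in the trachea. Cells positive for SiglecF, a sialic acid-binding lectin, and for CD11c, an integrin chain, were sorted into a fraction with much MHC class II protein (MHCII-high) and one with little (MHCII-low). Reference points are the same 2 fractions 2 weeks after bleomycin, with 3 libraries each, and 2 libraries of MHCII-low cells from mice given water, here called controls. The 14 libraries include none of MHCII-high cells from controls. Below, high-1 to high-3 and low-1 to low-3 stand for the 3 replicates of each sort at 4 weeks. The labels give no transgene or deleted gene, and they do not say whether a library came from 1 mouse or a pool. The p-values therefore measure the spread between libraries only, with all 14 libraries in the main fit.

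Alveolar macrophages live in the airspace, where they clear inhaled particles and recycle surfactant lipid. They carry SiglecF and CD11c and normally little MHC class II, the complex that shows peptides to CD4+ T cells. Bleomycin breaks DNA, and instilled into the airway it injures the epithelium and is followed by scarring. After such an injury blood monocytes enter the airspace and can turn into macrophages that carry resident markers, and dendritic cells and interstitial macrophages of the lung have abundant MHC class II.

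The 6 libraries held 15106415 to 39905281 recovered reads, with 15106415, 27040529 and 30781819 in high-1, high-2 and high-3 and 29348456 to 39905281 in MHCII-low libraries. MHCII-high libraries showed 16612 to 16721 genes with at least 1 read and MHCII-low libraries 18050 to 18439. Mitochondrial ribosomal RNA took 8.12%, 28.99% and 21.1% of the reads in the MHCII-high libraries and 3.12%, 23.2% and 5.10% in the MHCII-low libraries. MHCII-low libraries resembled each other more (Spearman 0.963 to 0.973 over the genes tested) than MHCII-high libraries did (0.920 to 0.933). On the second principal component of these 6 libraries, which held 26.4% of the variance, high-1, high-2 and high-3 lay at -123.9, -35.2 and 104.5 and the MHCII-low libraries between 14.3 and 20.8. Among 10002 genes with a mean of at least 100 normalized counts, the median SD of log2 values was 0.35 in MHCII-high cells against 0.27 in MHCII-low cells.

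Since the sort was on MHC class II protein, the genes of that complex check the labels and are not an independent result. Transcription of the class II chains is driven by the coactivator CIITA through a conserved promoter module that ends in a Y box. The 3 stretches with a Y box core below are the sequences just before the start of H2-Aa and H2-Eb1, which encode chains of the peptide-presenting molecule, and of H2-Ob, which encodes a chain of the modulator H2-O. They are set beside H2-M2, a class I-like gene of the same chromosome and the gene with the largest fitted increase. Capitals mark the Y box core GATTGG or its reverse complement CCAATC. Sequences are from RefSeq on build GRCm38.p6, read 5′ to 3′ on the strand of the gene, and cut where the gene begins in the deposited table. The H2-Aa stretch is chr17:34287828-34288073 on the reverse strand, H2-Eb1 chr17:34305617-34305866 and H2-Ob chr17:34238655-34238902 on the forward strand, and H2-M2 chr17:37483555-37483804 on the reverse strand.
H2-Aa: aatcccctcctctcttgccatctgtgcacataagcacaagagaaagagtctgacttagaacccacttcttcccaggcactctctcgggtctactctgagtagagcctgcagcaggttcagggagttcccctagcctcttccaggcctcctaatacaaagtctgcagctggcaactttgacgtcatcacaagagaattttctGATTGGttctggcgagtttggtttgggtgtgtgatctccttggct
H2-Eb1: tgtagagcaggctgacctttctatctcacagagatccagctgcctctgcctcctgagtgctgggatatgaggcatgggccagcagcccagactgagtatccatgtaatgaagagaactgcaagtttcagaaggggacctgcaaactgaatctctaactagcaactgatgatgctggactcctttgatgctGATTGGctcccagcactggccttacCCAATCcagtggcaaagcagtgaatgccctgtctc
H2-Ob: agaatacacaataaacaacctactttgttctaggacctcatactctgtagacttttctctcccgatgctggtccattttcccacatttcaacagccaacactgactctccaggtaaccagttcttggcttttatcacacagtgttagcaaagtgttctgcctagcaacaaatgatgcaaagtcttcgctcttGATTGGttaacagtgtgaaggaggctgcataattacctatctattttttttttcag
H2-M2: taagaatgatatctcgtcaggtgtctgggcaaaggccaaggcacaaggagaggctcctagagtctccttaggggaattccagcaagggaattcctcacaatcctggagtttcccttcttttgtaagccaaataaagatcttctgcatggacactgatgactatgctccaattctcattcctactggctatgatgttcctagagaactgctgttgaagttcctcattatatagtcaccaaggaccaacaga
The core began 49 bases before the RefSeq start of H2-Aa and 58 before that of H2-Ob. H2-Eb1 held it 60 bases before the start and again, reversed, 35 bases before it. H2-M2 had no match in this window.

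All 3 libraries of one sort were apart from all 3 of the other for these class II genes, as for 17.36% of all genes tested. H2-Aa (chromosome 17, 34282744 to 34287827) had 23262, 16283 and 25311 normalized counts in MHCII-high cells against 409.9, 381 and 778 in MHCII-low cells, against 128 and 137 in controls. Its log2 fold change was 5.42 ± 0.33 (SE, adjusted p 1.03e-08). Cd74, the invariant chain that escorts class II molecules, had 103125, 60414 and 129257 against 2918, 2292 and 4372 (4.92 ± 0.33). Measured per kilobase of exon, Cd74 was the 7th most abundant gene in MHCII-high cells outside ribosomal RNA (69219 normalized counts per kilobase) and far from the first 10 in MHCII-low cells (2265). The coactivator Ciita had 1319.5, 1396 and 2208 against 73.8, 93.1 and 86.4 (4.23 ± 0.33). H2-Ab1 rose by 4.81 ± 0.31 and H2-Eb1 by 6.99 ± 0.69.

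The genes of the peptide-loading and modulating molecules moved less evenly. H2-Ob had 516, 515 and 212 normalized counts in MHCII-high cells against 0.9, 0 and 13.9 in MHCII-low cells (6.98 ± 1.19, adjusted p 0.00149), while its partner chain H2-Oa had 64.5, 17.3 and 17 against 54, 48 and 11.7 and overlapped between the sorts (-0.22 ± 0.94, adjusted p 0.942). H2-DMb1, a chain of the peptide exchanger H2-DM, rose by 1.07 ± 0.20 from 2954 ± 449 to 6306 ± 1735 (SD, n = 3 each, adjusted p 0.00372). H2-DMa, the other chain, was not detectably different at 9339 ± 873 and 9202 ± 2351 (0.05 ± 0.20, adjusted p 0.942). H2-DMb2 was called higher (1.08 ± 0.28, adjusted p 0.0394), a call that was lost without high-1, high-2, low-2 or low-3 (adjusted p up to 0.158). H2-Eb2, whose reads may be shared with H2-Eb1, had 43.7, 26.7 and 155 against 0.9, 0 and 0 and was called higher (adjusted p 0.00493). In all, 9 of 11 class II genes were called, all higher, with a median log2 fold change of 4.81. Of these 11 genes, 8 had a RefSeq promoter window (250 bases before to 50 after a start), and all 8 held the Y box core in at least 1 window, H2-Oa and H2-DMa included. Over all tested genes with a window the share was 22.9%.

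The other sort proteins gave a mixed picture. Siglecf had 4358, 4139 and 3728 normalized counts in MHCII-high cells against 9551, 7205 and 8156 in MHCII-low cells, with 6461 and 7034 in controls. It was lower by about one log2 unit (-1.02 ± 0.15, adjusted p 0.000369), and the call held without each single library. Itgax, which encodes CD11c, overlapped between the sorts at 29366 ± 5295 and 31686 ± 2668 (-0.12 ± 0.15, adjusted p 0.761).

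Over all genes, 433 of 15496 (2.79%) passed an adjusted p of 0.05. Of these 342 (2.21% of the genes tested) were higher in MHCII-high cells and 91 (0.587%) were lower. The list counts below are to be read against these shares. The higher genes moved further: their median log2 fold change was 2.98, against -1.88 for the lower genes, and 170 were at least 8-fold higher while 40 were at least 8-fold lower. Many of the higher genes had few reads in MHCII-low cells. Their median level was 65.2 normalized counts there and 537.9 in MHCII-high cells, and 22 had no read in any MHCII-low library. The lower genes had a median of 304.8 in MHCII-low and 92.7 in MHCII-high cells, and 18 had no read in any MHCII-high library. Of the 342 higher genes, 174 were called again after each single library was left out, and of the 91 lower genes 13 were. With only the 6 libraries in the fit, 195 of the higher and 10 of the lower genes were called again, so most of the lower calls need the spread pooled over all groups. The number of calls fell to 277 without low-1 and to 273 without low-3. The lower calls numbered 28 to 39 without any one of the MHCII-low libraries and 153 and 142 without high-1 and high-2. In bulk samples such as these, fewer cells of a type and less RNA per cell cannot be told apart.

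**Figure D1:**
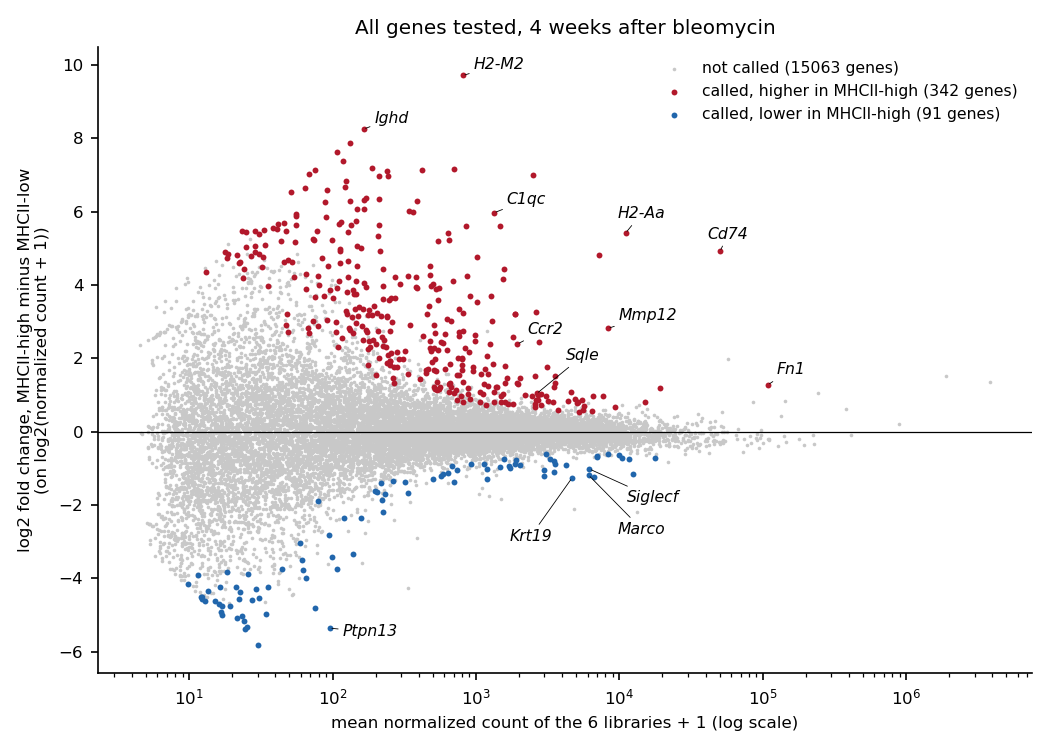
Log2 fold change (MHCII-high minus MHCII-low, on log2 of the normalized count plus 1) of the 15496 genes tested against their mean normalized count plus 1 over the 6 libraries on a log scale; each point is a gene, red and blue those called higher (342) and lower (91). Called increases reach from low to high abundance and up to 9.71 for H2-M2, while called decreases among abundant genes such as Siglecf, Marco and Krt19 stay near -1; values of genes with no read in one sort, such as Ighd, depend on the added 1.

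The 15 largest increases included H2-M2, the immune receptors Slamf7 and Flt3, and the immunoglobulin genes Ighd and Igha. They were taken by fold change among called genes outside the class II list with a mean of at least 100 normalized counts and no overlap between sorts, a rule that 267 increases and 51 decreases met. H2-M2 had 1686, 2142 and 1032 normalized counts in MHCII-high cells and 0, 0 and 5.3 in MHCII-low cells (9.71 ± 0.71, adjusted p 4.23e-08). Slamf7, a receptor of the SLAM family on activated immune cells, had 2046, 1362 and 725 against 25.7, 0 and 24.5 (7.17 ± 0.89). Flt3, the cytokine receptor that dendritic cells need for their development, had 187, 281 and 229 against 1.7, 0 and 0 (adjusted p 0.00056). Every MHCII-high library was above every MHCII-low library for these 3 genes, which the rule required. Of all genes tested, 17.36% did not overlap between the sorts. Mgl2, a galactose-binding lectin of macrophages and dendritic cells, rose by 7.11 ± 1.08, and Il1rl1, the receptor for interleukin 33, by 6.38 ± 0.95. Il1rl1 was even among MHCII-high libraries at 302, 384 and 326 and had 9.4, 0 and 5.3 in MHCII-low cells. Dcstamp, needed for the fusion of macrophages and osteoclasts, had 233, 204 and 803 against 5.1, 2.9 and 2.1 (6.33 ± 0.71). Fcrls, an Fc receptor-like gene, rose by 6.98 ± 1.05, Adam23, a membrane protein of the disintegrin family, by 7.15 ± 1.11, and the transporter gene Abcg3 by 7.20 ± 1.03.

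The other members of the first 15 were Ighd and Igha, the heavy chain constant regions of IgD and IgA, Gfra2, a receptor for neurturin, Slco5a1, a solute carrier, Tnfrsf13c, the receptor for the B cell survival factor BAFF, and Pou2af1, a coactivator of B cells. Ighd had 499.5, 295 and 189.9 normalized counts in MHCII-high cells and 0 in all 3 MHCII-low libraries. Against a floor of 3 reads per library, a mean of 2.9 normalized counts, it was at least 113-fold higher. The same bound was 90.8-fold for Igha, 85.3-fold for Slco5a1 and 73.2-fold for Gfra2, though Slco5a1 fell to 12.2 in MHCII-high replicate 3 from 514 and 216 in the others. Tnfrsf13c had 271, 187 and 258 against 0, 0 and 11.7 (adjusted p 0.00335). Pou2af1 was just inside the threshold (6.30 ± 1.69, adjusted p 0.0487), and its call was lost without each library except low-1 (adjusted p up to 0.19). The calls of the other 14 held without each single library.

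Among genes that met this naming rule, the largest decreases were smaller in size than the largest increases. Over all 15496 genes tested the lowest fold change was -5.82. The 15 named by the same rule were Tcf24, Slc4a5, Dysf, Gm17767, Fam83f, Slc2a8, Slc18b1, Meis1, B3gnt8, Rab19, Wash1, Pnpla3, Slc41a3, Ngrn and Dnah11. Tcf24, a helix-loop-helix factor, had 37.5, 54.9 and 0 normalized counts in MHCII-high cells against 274, 122 and 156 in MHCII-low cells (-3.75 ± 0.99, adjusted p 0.0441). Slc4a5, a bicarbonate transporter, had 6.2, 26.7 and 64.5 against 277, 261 and 189.8 (-3.35 ± 0.76, adjusted p 0.0179). Slc2a8, a hexose transporter of internal membranes, fell by 1.88 on the log2 scale (SE 0.46), and Dysf, which takes part in membrane repair, by 2.36 (SE 0.63). Each of the 15 calls was lost without low-2, and without at least 2 of the other libraries taken out one at a time. The highest adjusted p on leaving out 1 library ranged from 0.0836 for Slc4a5 to 0.214 for Fam83f.

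Ptpn13, which encodes a large protein tyrosine phosphatase, fell further than these and kept its call without each single library. It had 6.2, 0 and 11 normalized counts in MHCII-high cells against 229, 147 and 175 in MHCII-low cells, with 92.3 and 165 in controls (-5.36 ± 0.85, adjusted p 0.000738). Its 2-week means were 79.1 and 32.7, which did not pass (1.11, adjusted p 0.59).

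All 3 chains of C1q, the first component of complement, were higher in MHCII-high cells. C1q starts the classical complement pathway, tags dying cells and debris for uptake, and is made largely by tissue macrophages. Its 3 chains are encoded side by side on chromosome 4: C1qb (136880129 to 136886187), C1qc (136889804 to 136893065) and C1qa (136895917 to 136898803), all on the reverse strand. C1qc had 2404, 2785 and 2685 normalized counts in MHCII-high cells against 24.9, 24.5 and 109.8 in MHCII-low cells (5.97 ± 0.55). C1qb had 1509, 1422 and 1969 against 9.4, 23.5 and 143 (5.61 ± 0.72), and C1qa 955, 601 and 723 against 9.4, 2 and 26.7 (6.29 ± 0.82). Low-3 was the highest MHCII-low library for all 3 chains. Controls stayed at 12.9 or below for each.

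Of 18 complement genes 7 were called higher and 1 lower, with a median of 0.61 where all tested genes had -0.02. C3ar1, the receptor for the fragment C3a, had 1958, 3041 and 3702 against 117, 232 and 142 (4.15 ± 0.30, adjusted p 4.23e-08). Itgam, the CD11b chain of complement receptor 3, had 5748, 4079 and 4338 against 412, 530.4 and 522 (3.26 ± 0.31). Cd93, a membrane protein with a role in the uptake of apoptotic cells, rose by 0.97 ± 0.19. The lower gene was C3 itself, the central component, at 8701 ± 1142 against 14635 ± 2343 (-0.75 ± 0.16, adjusted p 0.0134), and its call did not hold without high-2 or low-1 (adjusted p up to 0.0701).

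Of 28 genes known from monocyte-derived or interstitial lung macrophages 12 were called, all higher, with a median of 1.65. A positive fold change was seen for 22 of the 28. The summed level of the list overlapped, at 134206 to 151205 normalized counts in MHCII-high, 134066 to 137835 in MHCII-low and 112802 and 133219 in control libraries. Axl, Mertk, Csf1r and Tlr7, abundant in both sorts and not called, make up most of that sum, so it says little about the other members. Ccr2, the receptor that brings monocytes out of the blood, had 3632, 3306 and 2852 normalized counts in MHCII-high cells against 549.7, 648 and 669.5 in MHCII-low cells (2.39 ± 0.18, adjusted p 7.71e-08). MHCII-low cells were close to the controls for this gene (726 and 639.7). Cx3cr1, the fractalkine receptor, had 1018, 1318 and 844 against 54, 32.4 and 11.7 (5.19 ± 0.47). Maf, a transcription factor of tissue macrophages, rose by 3.16 ± 0.52.

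The other called members of this list were Mgl2, Stab1, Tmem176b, Tmem176a, F13a1, Cd163, Adgre4 and Apoe. Stab1, a scavenger receptor, had 268, 378 and 256 against 22.3, 9.8 and 2.1 (5.01 ± 0.77). Cd163, the receptor for haptoglobin with haemoglobin, had 551.5, 398.5 and 35.3 against 5.1, 0 and 3.2 (6.08 ± 1.03), with high-3 the lowest of the MHCII-high libraries. F13a1, a coagulation factor subunit made by macrophages, had 745, 850.4 and 532 against 1.7, 7.8 and 54.4 (5.99 ± 0.95). Apoe, which carries lipid out of cells, had its highest level in high-3, at 1353, 1834 and 3899.7 against 182, 76.5 and 318 (3.69 ± 0.70, adjusted p 0.00381). Tmem176a (lost without high-1, high-3 or low-3, adjusted p up to 0.113) was the least stable of these calls. Cd163 and Apoe thus ranked the MHCII-high libraries in opposite order.

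**Figure D2:**
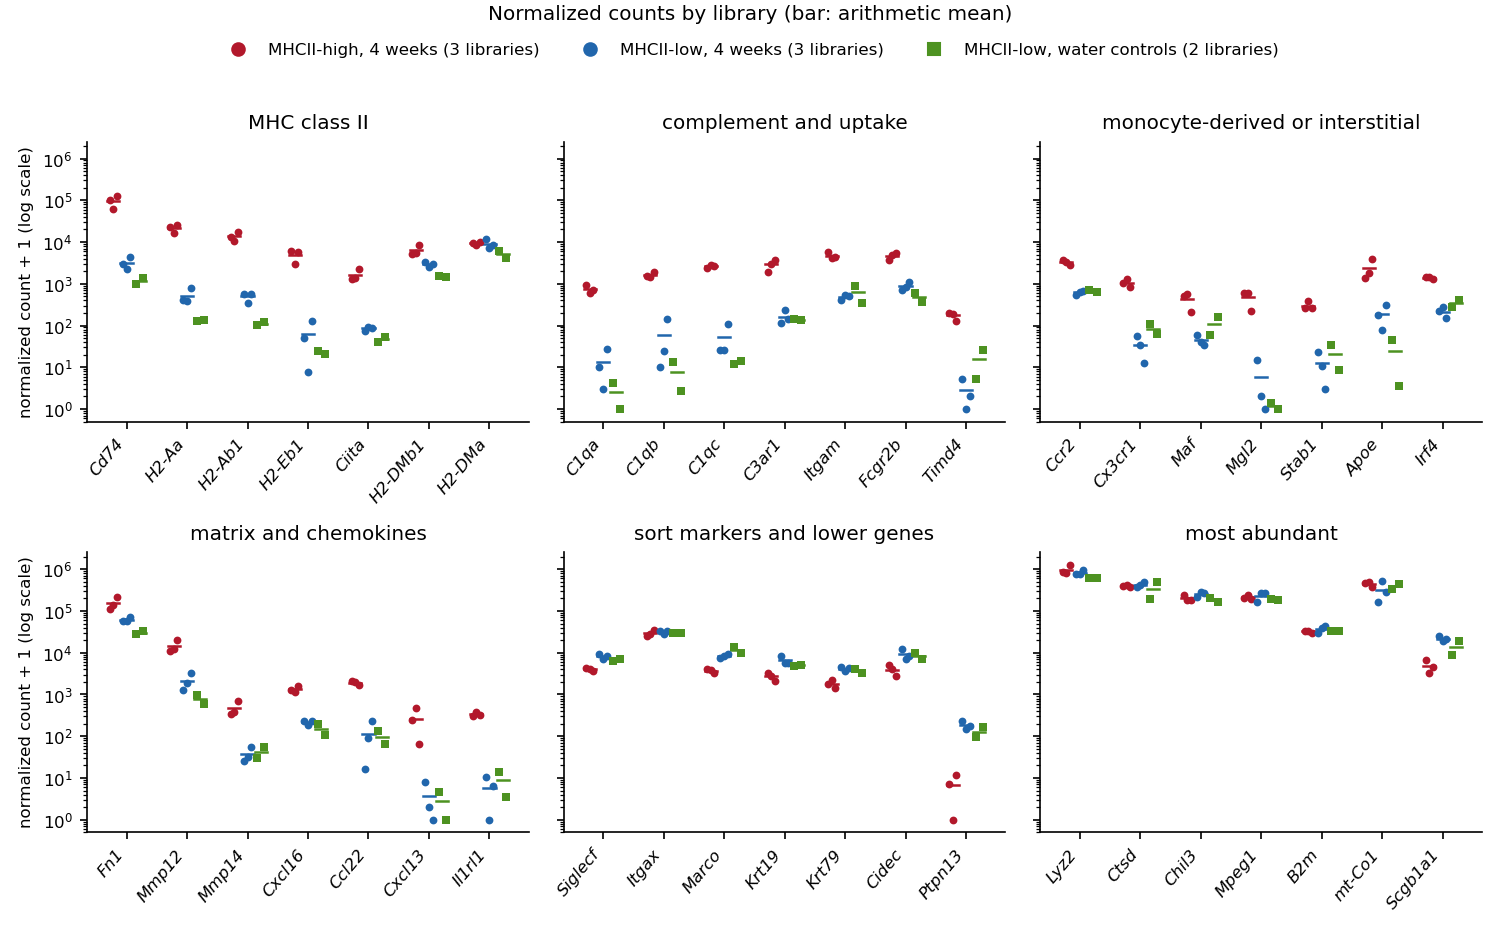
Normalized count plus 1 on a log scale for 7 genes in each of 6 groups, with 1 point per library (red MHCII-high and blue MHCII-low at 4 weeks, 3 each; green squares 2 controls) and a bar at the arithmetic mean. Class II, complement, monocyte-derived and chemokine genes lie apart between sorts except H2-DMa, the lower genes lie within about one log2 unit except Ptpn13, and the most abundant genes overlap except Scgb1a1.

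Genes of the resident alveolar macrophage went the other way, by smaller amounts: 5 of 25 were called, all lower, and 23 of the 25 had a negative fold change (median -0.32). Marco, a scavenger receptor for particles and bacteria, had 4173, 3778 and 3242 normalized counts in MHCII-high cells against 7686, 8424 and 9367 in MHCII-low cells (-1.19 ± 0.22, adjusted p 0.00278). Controls had 13347 and 9686. Krt19, a keratin that alveolar macrophages express, had 3338, 2818 and 2079 against 8396, 5739 and 5649.6 (-1.27 ± 0.20, adjusted p 0.000668), and Krt79 fell by 1.22 (SE 0.20). Cidec, a lipid droplet protein, fell by 1.25 (SE 0.23) from 9365 ± 2890.2 to 3947 ± 1148. These 4 calls held without each single library. Perp fell by 1.10 (SE 0.26, adjusted p 0.024), a call that was lost without high-3, low-2 or low-3 (adjusted p up to 0.107). The defining regulator Pparg was at 7983 and 9498 on average (-0.26 ± 0.14, adjusted p 0.39) and Car4 at 15363 and 19125 (-0.35 ± 0.19, adjusted p 0.39).

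Among 28 genes linked to fibrosis and matrix remodelling, 5 were called, all higher (median 0.39). Mmp12, macrophage elastase, had 11137, 12179.8 and 20314 normalized counts in MHCII-high cells against 1277, 1892 and 3256 in MHCII-low cells, with 994 and 577 in controls (2.82 ± 0.29, adjusted p 3.81e-06). Mmp14, a membrane-bound collagenase, had 335, 381 and 699 against 24, 31.4 and 54.4 (3.66 ± 0.40). Fn1, fibronectin, had 111804, 140178 and 213533 against 57653, 58146 and 70257, and 27740.5 and 32671 in controls (1.28 ± 0.21, adjusted p 0.00121). All 6 libraries were thus above both controls for Fn1, which was not tested. Spp1, osteopontin, had 18779, 24989 and 36775 against 8523, 12319.8 and 14053 (1.18 ± 0.22, adjusted p 0.0031). Igf1, a growth factor for fibroblasts and epithelium, rose by 0.85 ± 0.19, and its call was lost without high-3, low-1 or low-2 (adjusted p up to 0.11). For each of these 5 genes high-3 was the highest library. Trem2 (0.50 ± 0.20, adjusted p 0.22) and Arg1 (1.52 ± 0.70, adjusted p 0.29) did not pass.

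Chemokines and their receptors were called in the higher direction only. Of 19 ligands 5 were called and of 11 receptors 4, where 2.21% of all genes tested were called higher. Cxcl16, which binds CXCR6 on T cells, had 1253, 1134 and 1565 normalized counts against 232, 181 and 228 (2.61 ± 0.28, adjusted p 5.6e-06). Ccl22, a ligand of CCR4, had 2148, 1955 and 1674 against 15.4, 92.2 and 236 (4.75 ± 0.59). Cxcl13, which attracts B cells, had 244, 469 and 63.3 against 6.9, 1 and 0 (6.28 ± 1.14, adjusted p 0.00249). Ccl5 (4.30 ± 1.00) was called too, but not without high-1, high-3, low-1 or low-3 (adjusted p up to 0.0828), and Ccl9 (1.30 ± 0.31) not without high-3 or low-1 (adjusted p up to 0.142). The count of called ligands was 3 without low-1 and 8 with DESeq2. Of the receptors, Ccr7, which guides dendritic cells to lymph nodes, had 204, 337 and 197 against 19.7, 6.9 and 0 (5.45 ± 1.04). Ccl2, the ligand of CCR2, did not pass (2.70 ± 0.78, adjusted p 0.072).

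Surface receptors for opsonised, microbial and dying material were split. Of 25 scavenger, lectin and Fc receptors 5 were called higher and 1, Marco, lower. The shares over all genes tested were 2.21% higher and 0.587% lower. Fcgr2b, the inhibitory Fc receptor, had 3809, 4810.4 and 5379.7 normalized counts against 690.3, 819 and 1077 (2.45 ± 0.21, adjusted p 4.79e-07). Colec12, a scavenger receptor with a collagen-like stalk, rose by 2.64 ± 0.38, and Clec4a1, a lectin-like receptor, by 2.33 ± 0.56, which was lost without high-1, low-1 or low-3 (adjusted p up to 0.126). Of 16 toll-like receptor genes 2 were called: Tlr9, which senses DNA, had 1009, 521 and 487 against 17.2, 2 and 16 (6.03 ± 0.73), and Tlr1 had 298, 282 and 74.2 against 0, 1 and 21.3 (5.71 ± 1.00). Of 14 genes for the uptake of apoptotic cells, Stab1, Itgb3 and Timd4 were called. Timd4, a phosphatidylserine receptor, had 204, 193 and 125 against 4.3, 0 and 1.1 (6.26 ± 1.18, adjusted p 0.00363). The abundant uptake receptors were at similar means in both sorts, Mertk at 27744 and 29401 (-0.08 ± 0.16) and Axl at 61672 and 70848 (-0.20 ± 0.15), and did not pass.

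Of 29 macrophage transcription factors 4 were called higher and 1 lower, beside 2.21% and 0.587% of all genes tested. Beside Maf they included Irf4, a factor of dendritic cells and of alternatively activated macrophages, with 1486, 1451 and 1267 against 218, 281 and 147 (2.74 ± 0.30, adjusted p 6.88e-06), and Runx3, with 248, 224 and 54.8 against 4.3, 0 and 2.1 (5.85 ± 0.91). The lower gene, the homeobox factor Meis1, had 123, 298 and 96.2 against 431, 594 and 461 (-1.68 ± 0.38, adjusted p 0.0179), and its call was lost without high-1, high-3, low-2 or low-3 (adjusted p up to 0.0902). Costimulation was represented by Cd86, the ligand of CD28, with 531, 962 and 1334 against 272, 226 and 319 (1.70 ± 0.35, adjusted p 0.00798), and by Cd40. Cd40 had 60.4, 36.1 and 9.7 against 0 in all 3 MHCII-low libraries, at least 12.2-fold higher, and its call was lost without each library except high-3 (adjusted p up to 0.0716). The checkpoint ligand Cd274 was abundant in both sorts, at 33168 and 34600 (-0.05 ± 0.25), and the other 9 genes of that list did not pass.

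Several pathways that often accompany class II expression gave few calls or none. None of 14 genes induced by interferon gamma was called by limma, edgeR or DESeq2, 0 had an unadjusted p under 0.05, and their median was -0.19. Ifi47 (0.71 ± 0.39, adjusted p 0.402) and Gbp4 (1.70 ± 1.10, adjusted p 0.488) had the smallest p-values of that list. None of 17 class I presentation genes was called by limma or edgeR (median 0.07; 2 at an unadjusted p under 0.05, and 2 called by DESeq2), with H2-Q7 (1.55 ± 0.46, adjusted p 0.0813) and Tap1 (0.74 ± 0.24, adjusted p 0.114) closest to the threshold. B2m, the light chain of class I molecules, was at 32481 ± 1799 and 36625 ± 6798 and overlapped. Of 22 type I interferon genes Ifi44 (2.75 ± 0.51, adjusted p 0.00324) and Mx1 (2.98 ± 0.73, adjusted p 0.0292) were called, beside 2.21% of all genes tested called higher. Mx1 kept its call only on leaving out high-2 (adjusted p up to 0.146 otherwise), and DESeq2 called 5 genes of that list. Of 17 cytokine and inflammasome genes only Il1rl1 was called: Il1b was at 870 and 456 (0.91 ± 0.30, adjusted p 0.12) and Tnf at 886 and 648 (0.45 ± 0.25, adjusted p 0.39).

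None of 25 cell cycle genes (median 0.02, 3 at an unadjusted p under 0.05) and none of 12 heat shock genes (median 0.10, 2 at that level) was called by limma, edgeR or DESeq2. A single cell cycle gene was called without high-2, and heat shock calls numbered 1 without high-1 and 2 without low-3. Mcm5, a replication licensing factor, was at 217 and 376 (-0.80 ± 0.30, adjusted p 0.18), and the mitotic checkpoint kinase Bub1b at 384 and 633 (-0.85 ± 0.33, adjusted p 0.201). Hspa1a and Hspa1b, near-identical neighbours whose reads may be split between them, were at 616 and 191 (1.70 ± 0.57, adjusted p 0.127) and at 214 and 64.3 (2.04 ± 0.66, adjusted p 0.109). Of 18 glycolysis genes hexokinase 2, Hk2, was called (0.89 ± 0.21, adjusted p 0.0211), of 13 iron genes the phagosomal metal transporter Slc11a1 (3.18 ± 0.70, adjusted p 0.0134), and of 15 immediate early genes Egr1 (1.30 ± 0.26, adjusted p 0.00618). Of 24 lysosomal enzymes the aspartic protease Ctse (1.76 ± 0.30, adjusted p 0.00137) was among the 2 called. Of 17 integrins, Itgam, Itgb3 and Itgb8 were called, all higher. Over all genes tested 2.21% were called higher, so 1 call in lists this short is not read as a result about the list. The call of Hk2 was lost without high-2 or any MHCII-low library (adjusted p up to 0.0812), that of Slc11a1 without high-1, high-2 or low-2 (up to 0.0702), and that of Itgb8 without high-1, high-3, low-1 or low-3 (up to 0.111).

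**Figure D3:**
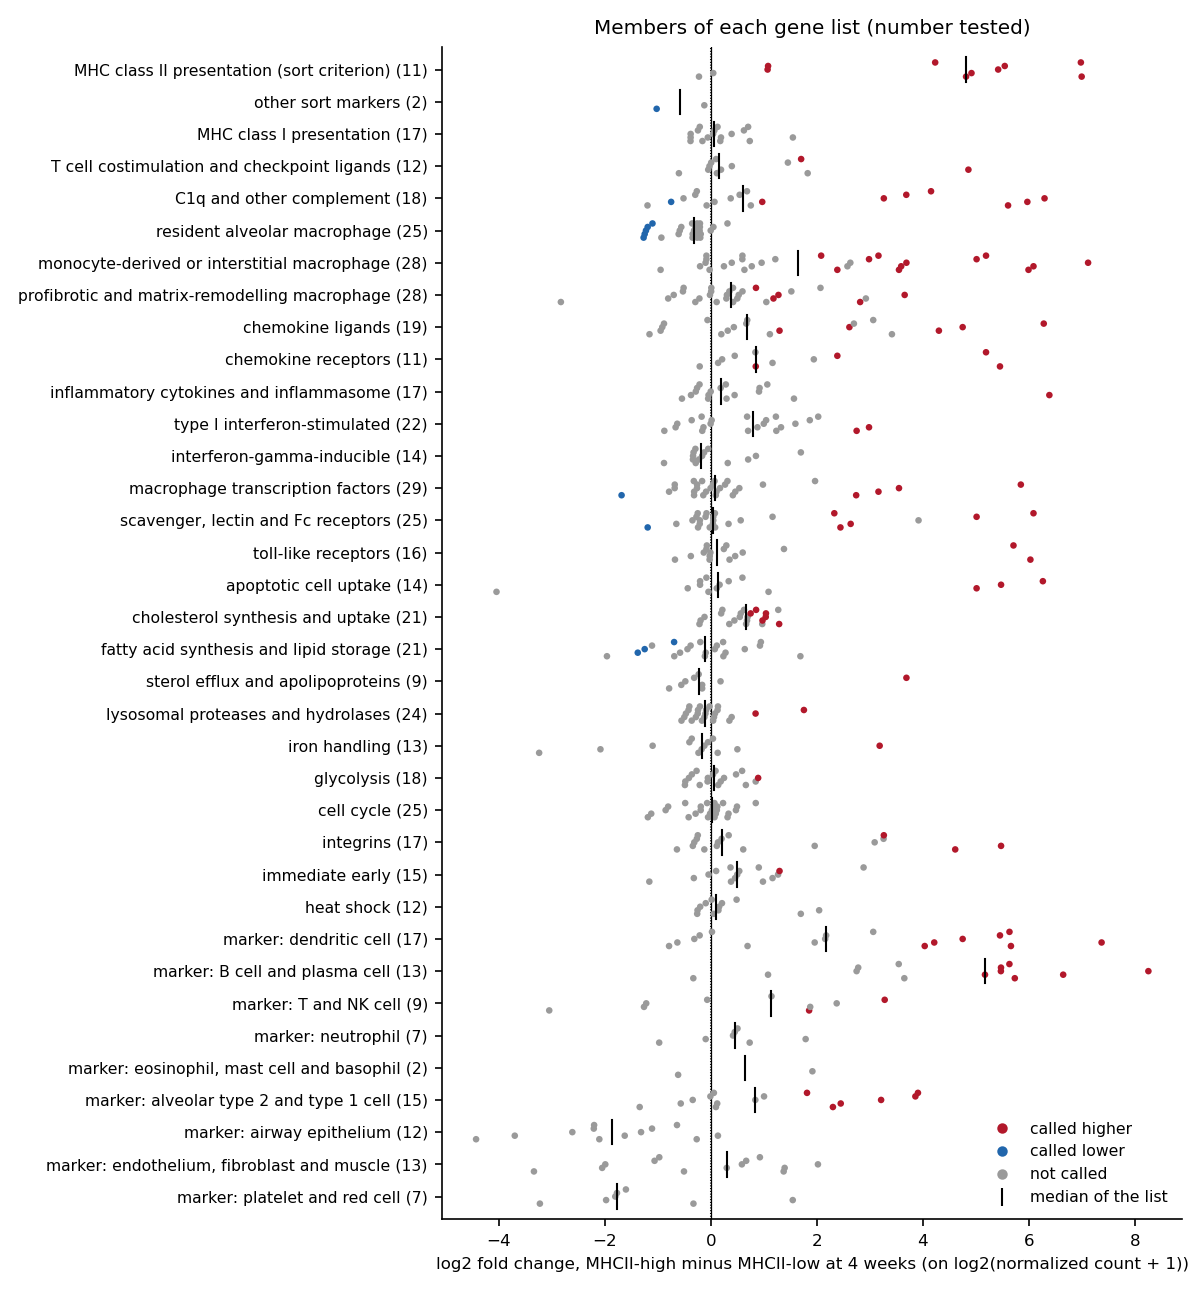
Log2 fold change (MHCII-high minus MHCII-low at 4 weeks, on log2 of the normalized count plus 1) of each tested member of 36 gene lists, 1 point per gene, red for called higher, blue for called lower and grey for not called; the black tick is the median of the list. Class II (4.81), B cell (5.17), dendritic cell (2.18) and monocyte-derived (1.65) lists have the highest medians, most others lie near the median of all genes (-0.02), and airway epithelium (-1.86) lies lowest with no called member.

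Transcripts of cholesterol synthesis and uptake genes tended to be higher in MHCII-high cells at 4 weeks. Of 21 synthesis and uptake genes 6 were called, all higher, and 18 had a positive fold change (median 0.67; 48.3% of all tested genes were positive). Sqle, squalene epoxidase, had 3397, 4348 and 3000.2 normalized counts in MHCII-high cells against 1692, 2064 and 1455 in MHCII-low cells (1.04 ± 0.20, adjusted p 0.00383). Msmo1 (0.98 ± 0.22), Sc5d (1.29 ± 0.33) and Cyp51 (0.85 ± 0.23), which act in later steps of the same pathway, rose too. The libraries of the sorts did not overlap for Sqle, as for 17.36% of all genes tested, and high-2 was the highest. The call of Sqle held without each single library, and those of Msmo1, Sc5d and Cyp51 were each lost on leaving out any of 4 libraries, low-1 and low-3 among them for each (adjusted p up to 0.0743 for Msmo1 and 0.215 for Sc5d). The count of called members fell to 1 without low-3, to 2 without low-1, with only the 6 libraries, or with the mitochondrial ribosomal RNA share as a covariate, and to 3 with trimmed-mean (TMM) factors, with edgeR, with no filter or without high-2. At least 17 members stayed positive in each of these fits and in the other alternatives.

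At 2 weeks the same genes lay near or below zero: 2 of 21 were positive, the median was -0.26 and none was called. Sqle was at 7331 in MHCII-high cells against 9590.4 in MHCII-low cells then (-0.40, adjusted p 0.33). For 20 of the 21 genes the fold change was larger at 4 than at 2 weeks, and for 13 the difference had an unadjusted p under 0.05, against 5.39% of all tested genes. No member passed the adjusted test of that difference (smallest adjusted p 0.122), so no single gene is shown to differ between times. The controls had 1116 and 1624 for Sqle, and at 4 weeks low-3 lay between them and low-1 and low-2 above both. Fatty acid and storage genes had 3 calls of 21, all lower: Cidec, and the lipases Pnpla3 (-1.38 ± 0.36, adjusted p 0.0402) and Pnpla2 (-0.69 ± 0.18, adjusted p 0.0426), the last 2 lost on leaving out any of 4 libraries (adjusted p up to 0.161 and 0.215). Without low-1 or low-3, with no filter, with only the 6 libraries or with the mitochondrial covariate the count was 1, and DESeq2 called 2 higher beside 3 lower. Of 9 sterol efflux genes Apoe was called. DESeq2, TMM factors, scaling to library totals, the GC trend removed and a filter of 100 normalized counts in 3 libraries each added 1 lower. So did 8 in place of the added 1, the replicate number as a block and leaving out high-1.

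**Figure D4:**
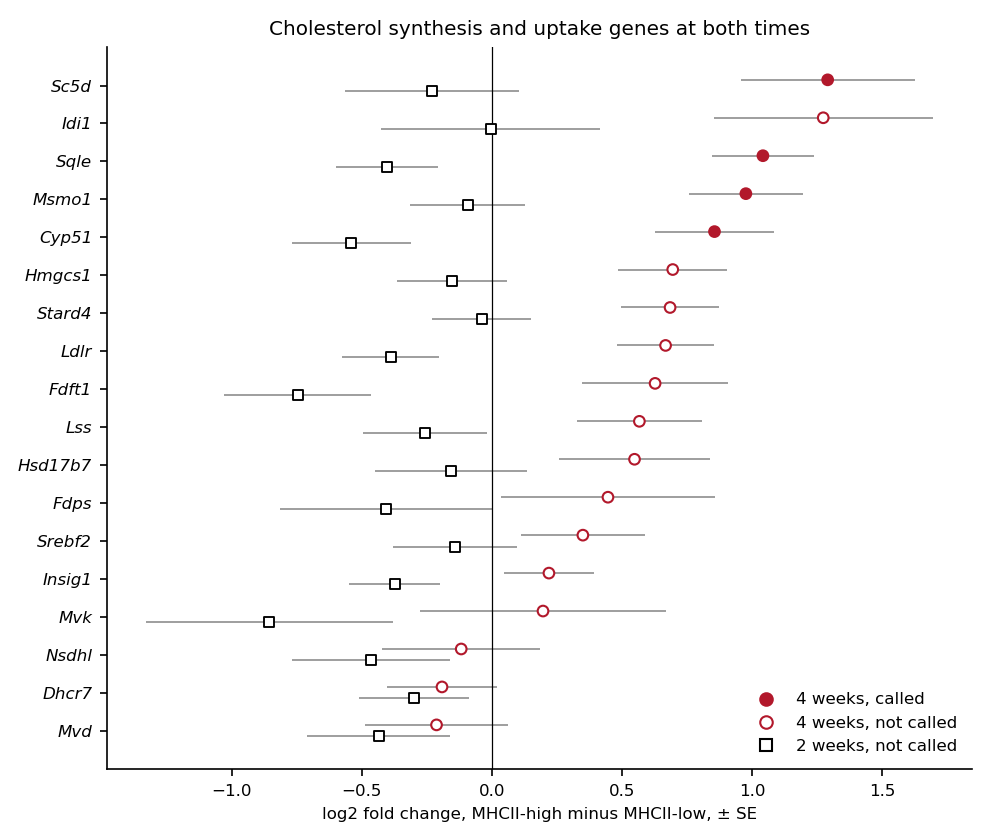
Log2 fold change (MHCII-high minus MHCII-low, points, with the SE as bars) of 18 of the 21 cholesterol synthesis and uptake genes at 4 weeks (circles, filled where called) and at 2 weeks (squares, none called). Of the 18 genes shown, 15 are positive at 4 weeks (4 called) and 0 at 2 weeks, while of all 21 genes 18 are positive at 4 weeks (6 called) and 2 at 2 weeks, so the picture shows the contrast between times as sharper than the whole list.

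Markers of other lung cells moved with these groups, and their part in the results was not tested. Of 17 dendritic cell markers 7 were called, all higher (median 2.18): Ccl22, Flt3, Dpp4, Ccr7, Fscn1, Cd209a and Cacnb3. Of the 17, 13 had a positive fold change, while Batf3, Ffar2, Cd24a and Naaa went the other way, uncalled. Fscn1, the actin bundler of mature dendritic cells, had 235, 690.3 and 289.7 normalized counts in MHCII-high cells against 22.3, 15.7 and 0 in MHCII-low cells (5.63 ± 1.11). Cd209a and Cacnb3 lost their calls without each library except high-3 (adjusted p up to 0.0703 and 0.151). Zbtb46, a factor of conventional dendritic cells, had 281, 303 and 82.8 against 74.6, 19.6 and 49 (2.18 ± 0.63, adjusted p 0.073). Clec9a, a marker of the cross-presenting subset, had 4.2, 262 and 377 against 6.9, 68.6 and 9.6 and was uneven among MHCII-high libraries. Batf3 had 6.2, 4.7 and 13.4 against 29.2, 6.9 and 11.7, the lowest fold change of the list (-0.79). Ffar2 had 768, 1043 and 535.5 against 1610.5, 1011 and 978. The summed level of the list overlapped, at 18138 to 19826 in MHCII-high, 17070 to 18367 in MHCII-low and 16371 and 19350.5 in control libraries, and Cd24a and Naaa, which alveolar macrophages express too, make up most of it. Of the 19 genes summed, 0 to 1 had no read in MHCII-high libraries and 3 to 6 in MHCII-low libraries.

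Of 13 B cell and plasma cell markers 7 were called, all higher (median 5.17, or 3.96 with the 4 genes at 0 in MHCII-low cells set to their bound). Beside Ighd they included Cd79b, with 108, 37.7 and 236 normalized counts against 0 in all MHCII-low libraries (at least 43.8-fold higher), Pax5, Ebf1, Igkc and Ms4a1. Pax5, the factor that keeps B cell identity, had 62.4, 31.4 and 41.4 against 0, 0 and 0, at least 15.5-fold higher. Ms4a1, which encodes CD20, had 210.2, 508 and 43.8 against 38.6, 0 and 0. Ms4a1 lost its call without high-1, high-2, low-2 or low-3 (adjusted p up to 0.172), Igkc without high-1, low-2 or low-3 (up to 0.0891), and Ebf1 without low-1 or low-3 (up to 0.0589). The count of called markers was 3 without low-3, 4 without high-1 or with only the 6 libraries, and 2 with a filter of 100 normalized counts in 3 libraries. The libraries ranked differently by gene: high-3 had the most Cd79b and the least Cd79a (379, 209 and 6.1). Of the 15 genes summed, 1 to 4 had no read in MHCII-high and 8 to 11 in MHCII-low libraries. The summed list overlapped, at 10471 to 13440.4 in MHCII-high and 11060.0 to 14677 in MHCII-low libraries. Cd22, with means of 9157 and 11509, and Ighm, the heavy chain of IgM, were its most abundant genes. Ighm had 1592, 2975 and 377 against 2127, 73.5 and 36.2, so that low-1 was above high-1 and high-3, and it did not pass (2.75 ± 1.00, adjusted p 0.167). These markers lie beside the rises of H2-Ob, Tlr9, Tlr1, Tnfrsf13c, Pou2af1 and Igha, genes that B cells also express.

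Epithelial markers moved both ways. Of 15 alveolar type 1 and type 2 markers 6 were called, all higher: Sftpc, Slc34a2, Etv5, Pdpn, Lamp3 and Hopx. Sftpc, surfactant protein C, had 6258, 2438 and 1569 normalized counts in MHCII-high, 594, 203 and 247 in MHCII-low and 169 and 39.6 in control cells (3.21 ± 0.54, adjusted p 0.00121). Slc34a2, the phosphate transporter of type 2 cells, had 1623, 847 and 484 against 182, 183 and 120.5 (2.45 ± 0.43). Sftpb, another surfactant gene of the same cells, overlapped at 925 and 1333 (-0.57 ± 0.41, adjusted p 0.54), as did Napsa at 843 and 805 (0.12 ± 0.29, adjusted p 0.89). Lamp3 is made by mature dendritic cells too. None of the 15 markers was at 0 in any of these libraries. The calls of Pdpn, Lamp3 and Hopx were lost without low-2 and on leaving out some other libraries (adjusted p up to 0.0951), and the count was 3 without low-2.

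Airway epithelial markers were lower in MHCII-high cells in sum, at 10300.3 to 13424 normalized counts against 31248 to 41815 in MHCII-low and 15642 and 28446 in control libraries, with no overlap between sorts. None of the 12 was called by limma, edgeR or DESeq2, 5 had an unadjusted p under 0.05, and a fit of only the 6 libraries called 2. Without high-1, with TMM factors or with 8 in place of the added 1, the count was 1. Scgb1a1, the secretory protein of club cells, had 6835, 3332 and 4478 against 24712, 19013 and 21293 (-2.21 ± 0.75, adjusted p 0.134). It was the 9th most abundant gene per kilobase of exon in MHCII-low cells (45531). Cyp2f2, a cytochrome of the same cells, had 2021, 1458 and 1882 against 10846, 6238 and 6476 (-2.10 ± 0.59, adjusted p 0.061). Scgb1a1 and Cyp2f2 made up most of the summed level in MHCII-low libraries. Cdh1, another large part of the sum, had 3195, 4596 and 4976 against 4028, 4126 and 3318, and was the only 1 of the 12 with a positive fold change. The ciliary dynein Dnah11 among the largest decreases lies beside these markers.

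Of 9 T and NK cell markers Il7r (1.85 ± 0.30, adjusted p 0.000803) and Cd4 (3.28 ± 0.75, adjusted p 0.0187; lost without high-2, low-1 or low-2, up to 0.103) were called, both of which macrophages or dendritic cells can express. The T cell receptor gene Trac had 33.3, 14.1 and 6.1 against 0, 2.9 and 18.1, and Cd3e, a chain of the receptor complex, had 2.1, 20.4 and 0 against 213.5, 12.7 and 11.7. No marker of neutrophils (7 tested), eosinophils, mast cells and basophils (2), endothelium, fibroblasts and muscle (13) or platelets and red cells (7) was called by limma, edgeR or DESeq2, and 1, 0, 2 and 3 of them had an unadjusted p under 0.05. In those lists the smallest p-values belonged to Mmp8 (0.42 ± 0.20, adjusted p 0.299), Il5ra (1.92 ± 1.67, adjusted p 0.627), Acta2 (-3.33 ± 1.02, adjusted p 0.0894) and Hbb-bt (-3.22 ± 1.08, adjusted p 0.126).

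**Figure D5:**
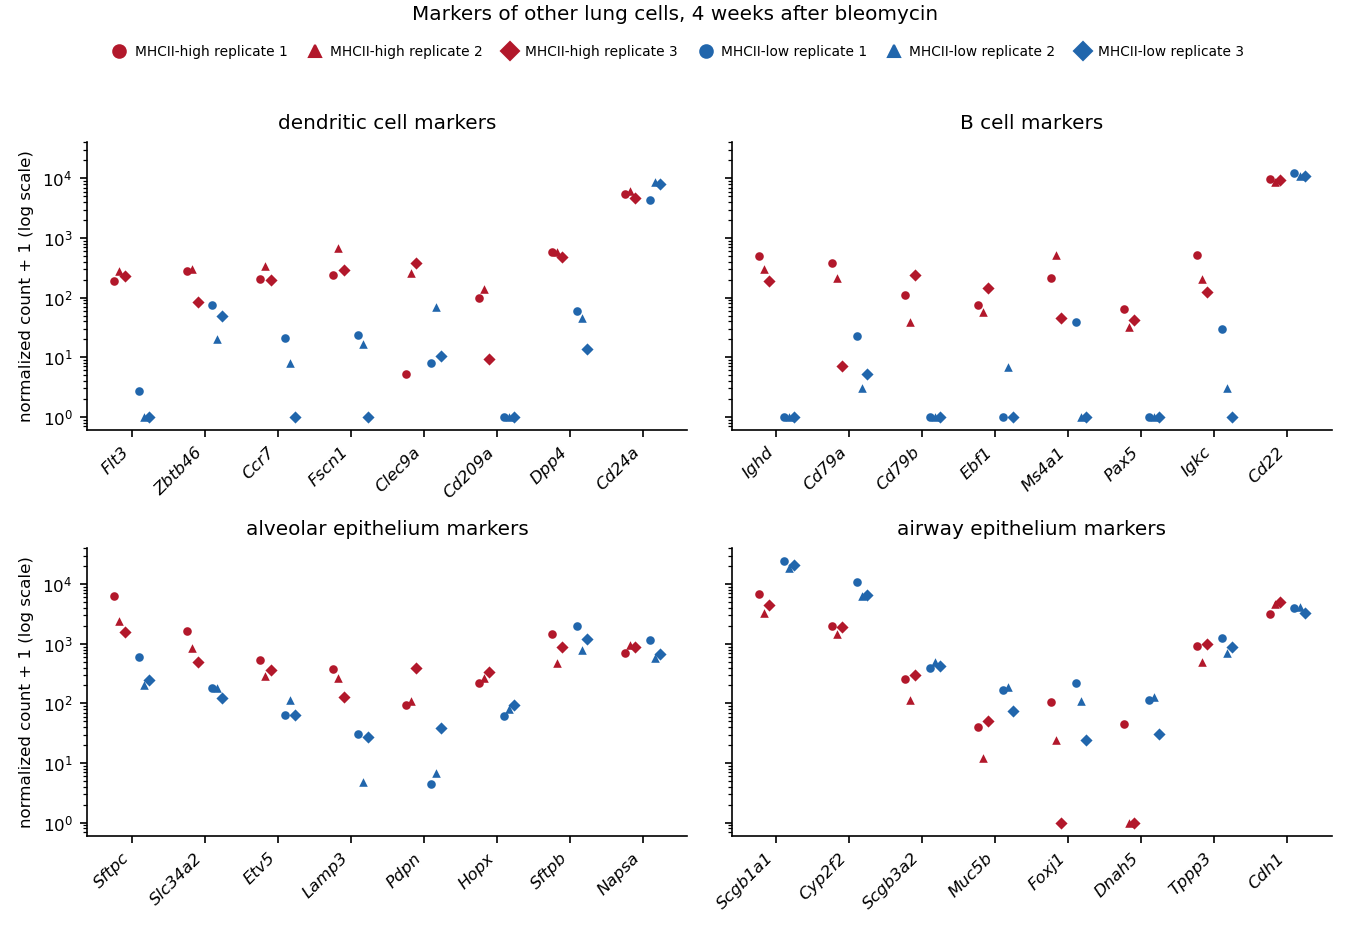
Normalized count plus 1 on a log scale of 8 markers each of dendritic cells, B cells, alveolar epithelium and airway epithelium in the 3 MHCII-high (red) and 3 MHCII-low (blue) libraries at 4 weeks, with 1 symbol per replicate. Ighd, Cd79b and Pax5 sit at 0 in all MHCII-low libraries (drawn at 1), the B cell markers other than Cd22 sit between 6.1 and 514 in MHCII-high libraries while Cd22 is high in both, and Scgb1a1 and Cyp2f2 are higher in all MHCII-low libraries.

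The most abundant genes were largely the same in both sorts. Lyz2, lysozyme, was the most abundant gene per kilobase of exon in both sorts (763512 and 653883 normalized counts per kilobase), and did not pass (0.20 ± 0.27, adjusted p 0.777). The cathepsin Ctsd, the chitinase-like Chil3, the pore protein Mpeg1, Actb and the mitochondrial genes mt-Co1, mt-Nd1 and mt-Cytb were among the first 10 in both sorts, and none of them passed. Only Cd74 and mt-Nd5 were among the first 10 of MHCII-high cells alone, and Scgb1a1 and B2m of MHCII-low cells alone.

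Promoter windows were searched on both strands for the letters of 4 motifs, as a description. The Y box core GATTGG was in 20.2% of the 237 called-higher (of 342) genes that have a window, 16.4% of the 67 called-lower genes and 22.9% of all 10583 tested genes. The PU.1 core GAGGAAG, PU.1 being the factor that macrophages depend on, was in 24.9%, 10.4% and 16.2%. The MAF half-site TGCTGA was in 26.2%, 25.4% and 18.7%, and the interferon element (GAAA, any 2 bases, GAAA) in 6.33%, 1.49% and 3.82%. Windows hold 300 bases, and a match is not a bound site.

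The 2-week comparison of the sorts uses other libraries, but both were fitted together with 1 estimate of the spread, so its calls are not an independent repeat. Of the 433 genes called at 4 weeks, 395 had the same sign at 2 weeks, and 229 were called at both times in the same direction (489 of the same 15496 genes were called at 2 weeks). That is 52.9% of the 4-week calls and 46.8% of the 2-week calls. C1qc had fold changes of 5.97 at 4 and 5.02 at 2 weeks, Ccr2 of 2.39 and 2.87, Mmp14 of 3.66 and 3.56, and Siglecf of -1.02 and -0.95. Other genes were called at 4 weeks only: Fn1 was at 1.28 and 0.64 (adjusted p 0.12 at 2 weeks), Spp1 at 1.18 and 0.15 (adjusted p 0.8), and Gfra2 had 2-week means of 59.4 and 19.6 (adjusted p 0.23). Tested as a difference between times, 0 of 15496 genes (0%) passed in limma's fit, with a smallest adjusted p of 0.108 and 836 genes at an unadjusted p under 0.05, so no gene is shown to be particular to 4 weeks. edgeR gave 0 and DESeq2 gave 37.

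The 5 genes with the smallest p in that test included Eya2, Ptpn13, Abca1 and Elf3. Eya2, a transcriptional coactivator with phosphatase activity, had no read in the 3 MHCII-high libraries and 20.6, 40.2 and 35.2 normalized counts in MHCII-low libraries at 4 weeks, but 181, 30.3 and 122 against 13.4, 9.6 and 10.5 at 2 weeks (unadjusted p 6.98e-06). Abca1, the cholesterol efflux pump, was the most abundant of these 4 and had 5057, 4224 and 5462 against 7326, 6486 and 6654 at 4 weeks and 5141, 5295 and 6135 against 3457, 3469.8 and 2782 at 2 weeks. Its levels in the sorts did not overlap at either time, in opposite directions (-0.48 and 0.77, difference -1.25 ± 0.24, adjusted p 0.122). At 4 weeks 17.36% of all genes tested did not overlap. Elf3 had no read in the MHCII-high libraries at 4 weeks and 16.3, 53.9 and 14.9 normalized counts in the MHCII-low libraries.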

How the data were processed

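RNA sequencing was done on sorted mouse lung cells, and 14 libraries are in 1 table. The authors deposited gene counts divided by 1 factor per library, a signal value with 1 decimal, per the file headers. GC content (percent) and exon length per gene are used as deposited. The submitters' processing notes name STAR, DESeq2 and build mm10, with no role, and no source used here gives the counting program or its strand setting.

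Log2 of the normalized count plus 1 was fitted with limma 3.58.1 (R 4.3.3), with 1 coefficient per group over all 14 libraries, since the groups then share one estimate of the spread. Genes needed 10 normalized counts in 2 of the 6 libraries compared. A gene was called at a Benjamini-Hochberg adjusted p under 0.05 over all 15496 genes. A fold change on this scale understates the change of low genes. The values of each library were whole multiples of a step, so reads could be recovered: at least 99.99% of values above 0 lay within 0.05 normalized counts of a multiple. Those of the 12 bleomycin libraries were tested with edgeR 4.0.16 and DESeq2 1.42.0 as alternatives, while the controls were not used in count tests. The limma fits, with and without the replicate number as a block, and the edgeR fit were tested on simulated data first. The DESeq2 fit was not.

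Genes named are the 15 largest eligible changes in each direction, the class II, sort marker and C1q genes, up to 3 called members per direction of each list (or the 2 with the smallest p), the 10 most abundant per kilobase, and the 5 with the smallest p in the time difference. Further list members were named after their values were seen. The comparison and the lists were chosen with earlier results of these data known. Of 592 list genes 590 are in the table and 535 passed the filter. Promoter windows are RefSeq's, matched by symbol. Other settings are described in the closing section. Some members of the lists are counted but not reported by name here.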

Additional observations from a re-analysis of the deposited data

How the results depend on the processing

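All 433 called genes kept their direction in every alternative in which they were tested (315 of them with a filter of 100 normalized counts in 3 libraries). The number called was 826 with DESeq2 (639 higher, 187 lower), 345 with edgeR (297 higher, 48 lower) and 214 with only the 6 libraries (199 higher, 15 lower). That last fit has fewer libraries to estimate the spread, and the cause of its lower count was not tested. Lower calls numbered 54 with no filter and 33 with the mitochondrial ribosomal RNA share as a covariate, where the cause was not tested. Leaving out 1 library gave 273 to 485 calls, 245 to 343 higher and 28 to 153 lower. The higher calls made up 79.0% of all calls, and 72.4% with TMM factors. The time difference gave 37 calls with DESeq2 and 0 to 3 on leaving out 1 library. The replicate number as a block (replicate block, 12 libraries) gave 424 calls, with 360 of the 433 kept, and it called 3 airway epithelial markers (all lower), 1 heat shock gene (higher) and 1 fatty acid and storage gene (lower). The pairing is not in the labels, and the deviations of same-numbered libraries correlated at 0.026, 0.096 and 0.017 at 4 weeks, against -0.088 to 0.053 for different numbers.

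Some uncalled genes turned in sign, for which the cause was not tested. H2-DMa was at -0.00507 with TMM factors, -0.0197 with edgeR and -0.11 to 0.24 on leaving out 1 library. H2-Oa was at 0.0366 with the mitochondrial covariate and -0.90 to 0.16 on leaving out 1 library, Mpeg1 at -0.33 to 0.0320, and Ctsd at 0.0276 with the GC trend removed. Leaving out a control or 2-week library is not among the fits of the 4-week calls. With only the 6 libraries no type I interferon, glycolysis or iron gene was called. Without mitochondrial ribosomal RNA, MHCII-high libraries had fewer reads than MHCII-low libraries at 4 weeks, and fewer genes detected, which limits precision for genes near 0 there.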
